A study of Mus musculus with 6 samples.

Results

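The 10 genes described here encode heat-shock chaperones of the cytosol and the mitochondrion, together with Hsf1, the transcription factor that controls many of them. They were taken by symbol from a fixed list, and all 10 of 10 were present among the 23345 genes measured. The study profiled messenger RNA of lung endothelial cells, which line the inside of vessels, from C57BL/6JOlaHsd mice kept for 12 weeks on a high-fat diet (HFD: mice 2, 4 and 5) or on a normal diet (ND: mice 1, 3 and 4). The labels name neither the age nor the sex of the mice. Dissociated lung cells were plated, depleted of cells bearing CD16/CD32, enriched with beads against ICAM-2 and plated again on collagen I, so the RNA is that of cells which had gone through digestion and culture. Each library was made from 500 cells of 1 mouse.

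Chaperones bind proteins that are unfolded or not yet folded. Hsp70 proteins hold exposed hydrophobic stretches in a cycle driven by ATP, J-domain proteins such as Dnajb1 start that cycle and Hsp110 proteins such as Hsph1 reset it by nucleotide exchange. Hsp90 proteins act later, on signalling proteins close to their final shape, and in endothelium Hsp90 is known for its binding to endothelial nitric oxide synthase. In the mitochondrial matrix, imported proteins fold inside the Hsp60 chamber (Hspd1) under its Hsp10 lid (Hspe1). HSF1 forms trimers during proteotoxic stress and binds heat-shock elements, which are repeats of GAA and its complement TTC facing each other.

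In HFD cells the constitutive Hsp70 Hspa8, the mitochondrial Hspd1, the J-domain protein Dnajb1 and Hsf1 were higher than in ND cells in every library. Their fitted folds were 1.80 (Hspd1) to 6.31 (Hsf1). The Hsf1 fold depended on the method, and the ratio of its means was 3.76. Hspa1b, a stress-inducible Hsp70, and Hsp90aa1, the stress-inducible Hsp90, were lower in every HFD library, with fitted folds of 0.504 and 0.837. Its near-copy Hspa1a had a fitted fold of 1.38 with overlap, the sum of both copies overlapped too, and the split of reads between them is uncertain. Hsp90aa1 differed by little. When the libraries were scaled to equal totals, Hsp90aa1, Dnajb1 and Hsf1 overlapped as well. The remaining 4 genes overlapped between the diets. None of these differences passed the test across all genes. Values are read counts divided by a size factor per library by the authors, called normalized counts, and differences are given as log2 fold changes, HFD minus ND, on the log2(value + 1) scale. They were tested two-sided with limma, and p-values were adjusted over 15655 genes by the Benjamini-Hochberg method. An adjusted p under 0.05 counted as called.

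Limma called 0 of the 10 genes, where the share called among all genes was 0.00%. At an unadjusted p under 0.05, 4 of the 10 were higher in HFD, against 5.56% of all genes, and 0 were lower, against 2.36%, so 4 of 10 in either direction against 7.92% of all genes. On the reads, edgeR's quasi-likelihood test and limma-voom also called 0 of the 10 (0.00% of all genes by each tool), with 1462 and 1311 genes at an unadjusted p under 0.05 against 1240 in limma. DESeq2 called 272 genes, or 1.74%, and among the 10 it called Hspa8 alone. For 4 of the 10 genes every HFD value exceeded every ND value, against 8.12% of all genes, and for 2 of the 10 every HFD value was lower, against 5.93%, which together is 6 of 10 against 14.1%. The median log2 fold change of the 10 genes was 0.73, against 0.05 over all genes tested. It was 0.40 by edgeR and 0.39 by DESeq2, against −0.04 and −0.06 over all genes, and in limma 0.34 without ND 4 and 0.44 without HFD 5. The genes were chosen with earlier results of these data known, so the counts describe them and do not test them.

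**Figure D1:**
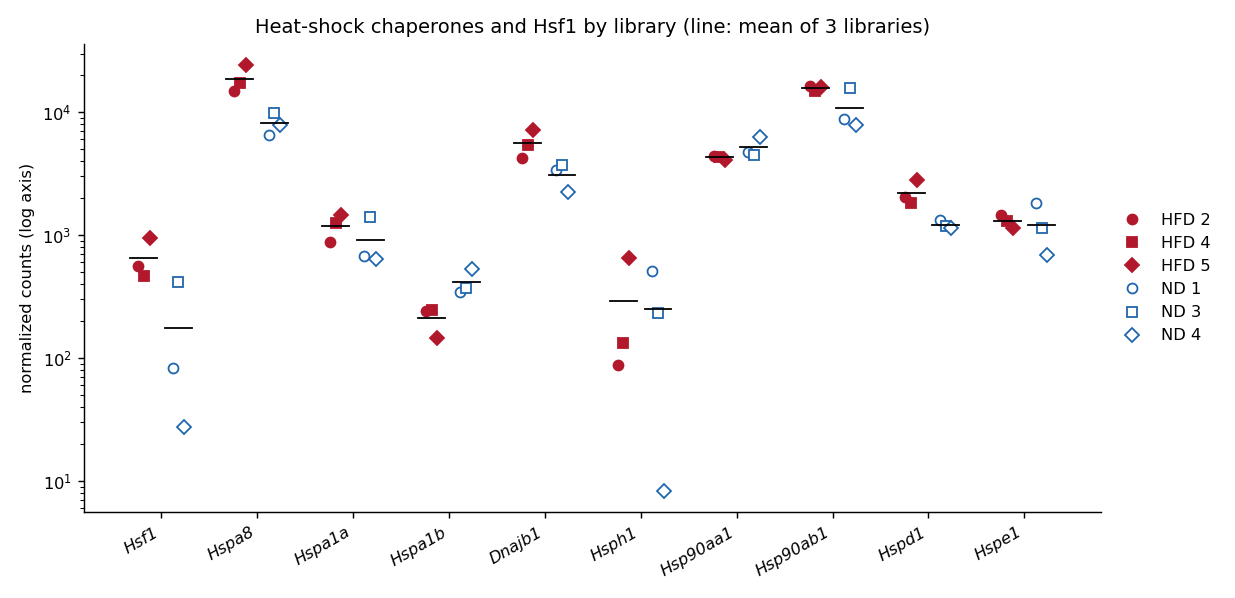
Normalized counts (log axis) of the 10 genes in each library, HFD as filled red and ND as open blue symbols, with a line at the mean of 3 libraries. The HFD symbols of Hspa8, Hspd1, Dnajb1 and Hsf1 all sit above the ND symbols, those of Hspa1b and Hsp90aa1 below, and Hsph1 spreads from 8.32 to 649 normalized counts.

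The libraries held 18.8 to 27.9 M reads in HFD and 13.8 to 17.2 M reads in ND, so depth and diet cannot be told apart. All 8 pan-endothelial markers had reads in every library, with a summed level of 119039 to 138419 normalized counts in HFD and 102877 to 130832 in ND. ND 3 had the highest summed level of epithelial, white blood cell, mural and fibroblast markers, and other libraries carried some of these too. The 7 epithelial markers summed to 96632 normalized counts there, against 3085 and 6629 in the other ND libraries. In HFD they summed to 3921 in HFD 2, 5037 in HFD 4 and 18175 in HFD 5. The 6 measured white blood cell markers summed to 6445 in ND 3, against 144 to 323 in HFD and 217 and 324 in the other ND libraries, with up to 2 of the 6 at 0 reads in a library. The 6 mural markers summed to 472 to 971 normalized counts in HFD, against 3262 in ND 1, 5218 in ND 3 and 710 in ND 4, and the 5 fibroblast markers to 2778 in HFD 2, 60.4 in HFD 4 and 525 in HFD 5, against 4735 in ND 3 and 685 and 129 in the other ND libraries. ND 3 was also the highest ND library for Hspa8, Hspa1a, Hsp90ab1, Dnajb1 and Hsf1, and the part of other cell types in those levels was not tested. In bulk libraries such as these, fewer cells of a type and less RNA per cell cannot be told apart. ND 4 was the lowest of all libraries for 7 of the 10 genes, and HFD 5, the deepest library, the highest for 6.

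Hsf1 had 557, 467 and 941 normalized counts in HFD 2, HFD 4 and HFD 5, against 82.7, 413 and 27.3 in ND 1, ND 3 and ND 4. All HFD libraries were higher, but ND 3 came close to HFD 4, and the coefficient of variation was 38.4% in HFD and 120% in ND. The means were 655 ± 252 in HFD and 174 ± 208 in ND (SD, n = 3). HFD minus ND, the log2 fold change was 2.66 ± 0.96 (SE), with a 95% interval of 0.40 to 4.92 and a limma adjusted p = 0.570. The value was 1.82 by edgeR and 1.81 by DESeq2, 1.75 without ND 4, where the gene had 23 reads, and 3.69 without ND 3.

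Hspa8 encodes Hsc70, the constitutive cytosolic Hsp70 that also strips clathrin from vesicles. It had 14828, 17121 and 24086 normalized counts in HFD 2, HFD 4 and HFD 5, against 6561, 9888 and 7916 in ND 1, ND 3 and ND 4. The lowest HFD library was well above the highest ND library. The log2 fold change was 1.19 ± 0.24 (SE), a 2.28-fold higher level with a 95% interval of 1.53 to 3.40 in fold. Its limma adjusted p was 0.367, the smallest of the 10. DESeq2 gave 1.12 with an adjusted p = 0.00987, while edgeR gave 1.13 with an adjusted p = 0.507, so the call rested on the choice of test. With 1 library left out at a time the log2 fold change was 0.99 to 1.34.

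Hspa1a and Hspa1b, the stress-inducible cytosolic Hsp70 genes, are neighbours on the minus strand of chromosome 17. Hspa1a lies from 34969190 to 34972156 and Hspa1b from 34956436 to 34959238 in GRCm38 with GENCODE M21 genes. Hspa1a had 871, 1247 and 1460 normalized counts in HFD 2, HFD 4 and HFD 5, against 672, 1411 and 639 in ND 1, ND 3 and ND 4. The values overlapped because ND 3 lay among the higher HFD libraries. Hspa1a had a log2 fold change of 0.46 ± 0.42 (SE; limma adjusted p = 0.818). It was 0.83 without ND 3, 0.26 without ND 4, and 0.30 without ND 1 or without HFD 5. Hspa1b ran the other way, with 242, 246 and 145 normalized counts in HFD 2, HFD 4 and HFD 5, against 344, 370 and 533 in ND 1, ND 3 and ND 4. All HFD libraries lay below all ND libraries, at a log2 fold change of −0.99 ± 0.46 (SE; limma adjusted p = 0.644).

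The split between these copies is uncertain. Of the 50-base words in the Hspa1a transcript, 58.8% also occur in Hspa1b, and 62.3% of those of Hspa1b occur in Hspa1a. The sources used here do not say how a read that matches both was counted. The gene Gm20481 overlaps part of the Hspa1a exon on the opposite strand, and whether the counting used strand is not given either. Taken as 1 gene, the pair had 1113, 1492 and 1604 normalized counts in HFD 2, HFD 4 and HFD 5, against 1016, 1781 and 1172 in ND 1, ND 3 and ND 4. The sum overlapped between the diets, with a log2 fold change of 0.11 ± 0.34 (SE; limma adjusted p = 0.960), a reading chosen after the data were seen. The share of Hspa1b in the sum was 21.7%, 16.5% and 9.02% in HFD 2, HFD 4 and HFD 5, against 33.8%, 20.8% and 45.5% in ND 1, ND 3 and ND 4, with HFD 2 above ND 3.

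The promoter windows of the pair, 250 bases before to 50 bases after the start, differ at 4 of 300 bases. They are shown because 2 nearly equal promoters stood beside fitted log2 fold changes of opposite sign. Neither gene was called by limma, and the split of reads between the copies is uncertain. The sequences are from RefSeq on GRCm38.p6, minus strand, printed 5′ to 3′, at chr17:34972107-34972406 for Hspa1a and chr17:34959189-34959488 for Hspa1b. Capitals mark a 2-unit heat-shock element, searched as GAANNTTC or TTCNNGAA. Both letter patterns are their own reverse complement, so 1 pass covers both strands.
Hspa1a: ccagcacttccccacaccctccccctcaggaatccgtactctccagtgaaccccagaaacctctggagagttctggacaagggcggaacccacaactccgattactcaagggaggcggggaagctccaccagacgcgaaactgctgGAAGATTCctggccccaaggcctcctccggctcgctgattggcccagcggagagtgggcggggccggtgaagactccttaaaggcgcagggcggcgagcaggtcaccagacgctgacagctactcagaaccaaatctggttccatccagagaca
Hspa1b: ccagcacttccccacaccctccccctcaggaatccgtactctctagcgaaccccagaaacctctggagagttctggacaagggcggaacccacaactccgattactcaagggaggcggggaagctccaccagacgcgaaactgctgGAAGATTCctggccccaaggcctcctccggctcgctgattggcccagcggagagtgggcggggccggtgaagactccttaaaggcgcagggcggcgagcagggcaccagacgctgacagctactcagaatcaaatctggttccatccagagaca
Each window holds 1 such element, GAAGATTC, which begins 104 bases before the start in both. Among 32851 promoter windows of the same length, 15.1% hold a 2-unit element. Neither window holds a 3-unit element, searched as GAANNTTCNNGAA or its reverse complement TTCNNGAANNTTC, which includes 2 overlapping 2-unit elements and occurs in 0.603% of all windows. A match describes letters and not binding.

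Dnajb1, the Hsp40 that delivers substrates to Hsp70 and stimulates its ATPase, had 4271, 5437 and 7173 normalized counts in HFD 2, HFD 4 and HFD 5, against 3401, 3689 and 2243 in ND 1, ND 3 and ND 4. Each HFD library exceeded each ND library, although HFD 2 and ND 3 were close. This gave a log2 fold change of 0.85 ± 0.30 (SE), with a 95% interval of 0.15 to 1.56 and a limma adjusted p = 0.565. Other genes share 0.412% of the 50-base words of its transcripts, the least among the 8 genes that share any. Neither of its promoter windows holds a 2-unit or 3-unit element.

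Hsph1, the Hsp110 exchange factor, varied most. It had 88.4, 132 and 649 normalized counts in HFD 2, HFD 4 and HFD 5, against 509, 234 and 8.32 in ND 1, ND 3 and ND 4. The libraries of the diets were fully mixed, and the ND 4 value came from 7 reads. Its log2 fold change was 0.93 ± 1.55 (SE; limma adjusted p = 0.910), with a 95% interval of −2.71 to 4.57, and it was −0.81 without ND 4, 0.07 without HFD 5 and 2.08 without ND 1. By edgeR and DESeq2 it was 0.15 and 0.11. No direction can be read from it. Its promoter, at chr5:149636266-149636565 on the minus strand, is shown as one that holds a 3-unit element, with capitals as before.
Hsph1: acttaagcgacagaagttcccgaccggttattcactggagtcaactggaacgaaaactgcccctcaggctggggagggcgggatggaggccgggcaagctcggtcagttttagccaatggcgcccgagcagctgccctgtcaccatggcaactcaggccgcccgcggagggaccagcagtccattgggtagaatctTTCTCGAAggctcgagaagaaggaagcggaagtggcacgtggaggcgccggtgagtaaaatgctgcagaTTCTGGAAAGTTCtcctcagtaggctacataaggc
The 3-unit element TTCTGGAAAGTTC lies just after this start, and a separate 2-unit element, TTCTCGAA, begins 54 bases before it.

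Hsp90ab1 and Hsp90aa1 encode the constitutive β and the stress-inducible α form of cytosolic Hsp90. Hsp90ab1 had 16188, 14865 and 16153 normalized counts in HFD 2, HFD 4 and HFD 5, against 8777, 15862 and 7866 in ND 1, ND 3 and ND 4. Only ND 3 reached the HFD range, where the libraries lay close together at a coefficient of variation of 4.79%, against 40.4% in ND. For Hsp90ab1 the log2 fold change was 0.61 ± 0.27 (SE; limma adjusted p = 0.639), and it was 0.92 without ND 3, 0.41 without ND 4 and 0.49 without ND 1. Hsp90aa1 had 4423, 4359 and 4094 normalized counts in HFD 2, HFD 4 and HFD 5, against 4726, 4511 and 6313 in ND 1, ND 3 and ND 4. Its HFD libraries were all lower, but by little, as HFD 2 and ND 3 were nearly equal and ND 4 alone stood high. The log2 fold change of Hsp90aa1 was −0.26 ± 0.21 (SE; limma adjusted p = 0.795), and −0.11 without ND 4.

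Hspd1 and Hspe1, the mitochondrial chaperonin and its lid, are transcribed away from each other from neighbouring starts on chromosome 1. Hspd1 lies on the minus strand from 55077835 to 55088243 and Hspe1 on the plus strand from 55088132 to 55091307, so their first exons overlap. The window upstream of Hspe1, at chr1:55087898-55088197 on the plus strand, is shown because it also covers the start region of an Hspd1 transcript.
Hspe1: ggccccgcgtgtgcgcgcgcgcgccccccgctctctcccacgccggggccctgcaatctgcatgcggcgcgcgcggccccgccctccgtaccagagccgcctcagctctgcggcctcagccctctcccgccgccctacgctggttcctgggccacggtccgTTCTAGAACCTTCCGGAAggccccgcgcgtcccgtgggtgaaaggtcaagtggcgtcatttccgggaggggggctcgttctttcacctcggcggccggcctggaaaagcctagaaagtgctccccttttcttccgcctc
Its run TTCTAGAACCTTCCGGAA holds 3 overlapping 2-unit elements and 2 overlapping 3-unit elements, the first beginning 89 bases before the Hspe1 start. The same bases, read on the other strand, begin 144 bases before 1 of the 2 annotated Hspd1 starts, and the window of the other Hspd1 start holds none. Among the 6 of the 10 genes with a window in the table, 5 had a 2-unit and 3 a 3-unit element in at least 1 window. These are not separate cases, since Hspd1 and Hspe1 share the same bases and the Hspa1a and Hspa1b windows are nearly equal. Of all windows, 15.1% held a 2-unit and 0.603% a 3-unit element, which is a share per window and not per gene.

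Hspd1 had 2039, 1833 and 2784 normalized counts in HFD 2, HFD 4 and HFD 5, against 1325, 1180 and 1138 in ND 1, ND 3 and ND 4. The ND libraries lay close together and the HFD libraries were all clearly above them. Hspd1 had a log2 fold change of 0.85 ± 0.28 (SE), with a 95% interval of 0.19 to 1.51 and a limma adjusted p = 0.561, and it was 0.67 to 0.97 with 1 library left out. Hspe1 had 1457, 1314 and 1138 normalized counts in HFD 2, HFD 4 and HFD 5, against 1814, 1145 and 693 in ND 1, ND 3 and ND 4. All HFD values lay inside the ND range. Hspe1 had a log2 fold change of 0.20 ± 0.41 (SE; limma adjusted p = 0.933), and it was −0.15 without ND 4 and 0.54 without ND 1. By edgeR and DESeq2 it was 0.06 and 0.04.

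**Figure D2:**
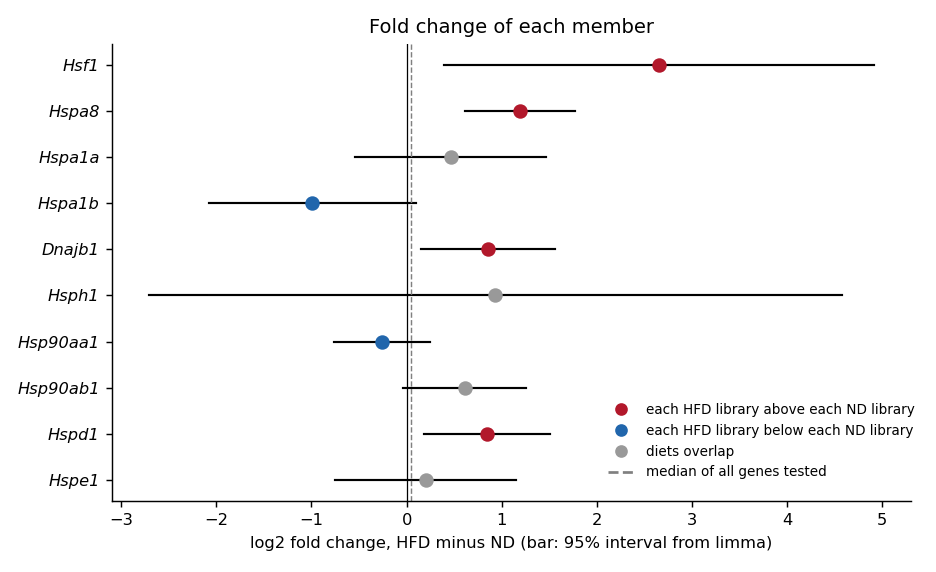
Log2 fold change of each gene, HFD minus ND, with its 95% interval from limma, coloured by whether the libraries of the diets overlapped, and a dashed line at the median of all genes tested. The intervals of Hsf1, Hspa8, Dnajb1 and Hspd1 lie above 0 before adjustment, and that of Hsph1, from −2.71 to 4.57, is the widest.

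Ratios between partners within a library need no scaling between libraries. The summed level of Hspa1a and Hspa1b relative to Hspa8 was 0.0750, 0.0872 and 0.0666 in HFD 2, HFD 4 and HFD 5, against 0.155, 0.180 and 0.148 in ND 1, ND 3 and ND 4. All HFD libraries were lower, with little spread inside either diet. The summed pair itself had a log2 fold change of 0.11, and Hspa8 had 1.19. The lower ratio thus restates the higher Hspa8 level and is not a separate result. On the log2 scale the ratio was −3.72 ± 0.19 in HFD and −2.64 ± 0.15 in ND (SD, n = 3), a difference of −1.08. An exact two-sided permutation test gave p = 0.1, the smallest that 3 against 3 can give. The difference was −1.18 to −0.99 with 1 library left out.

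The ratio of Hsp90aa1 to Hsp90ab1 was 0.273, 0.293 and 0.253 in HFD 2, HFD 4 and HFD 5, against 0.538, 0.284 and 0.802 in ND 1, ND 3 and ND 4. ND 3 lay among the HFD libraries and the other ND libraries were higher. The log2 ratio differed by −0.87 (exact two-sided permutation p = 0.2), and by −0.52 without ND 4. For Hspe1 relative to Hspd1 the ratio was 0.715, 0.717 and 0.409 in HFD 2, HFD 4 and HFD 5, against 1.37, 0.970 and 0.609 in ND 1, ND 3 and ND 4. ND 4 overlapped with HFD, and the log2 ratio differed by −0.65 (exact two-sided permutation p = 0.3), by −0.37 without ND 1 and by −0.38 without HFD 5. Adjusted over the 3 ratios by the Benjamini-Hochberg method, each permutation p was 0.3.

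**Figure D3:**
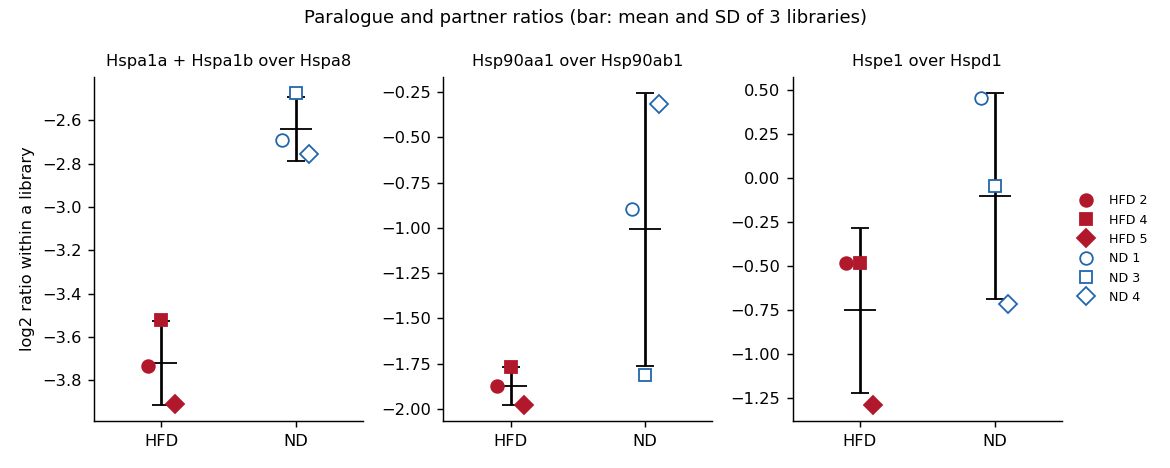
Log2 ratio within each library of inducible to constitutive Hsp70, of the α to the β form of Hsp90 and of the Hsp10 lid to Hsp60, with the mean and SD of 3 libraries per diet; each panel has its own axis range. The Hsp70 ratio separates the diets at −3.72 against −2.64, whereas ND 3 in the Hsp90 panel and ND 4 in the Hsp10 panel fall within the HFD range.

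Levels can be compared between genes only per length, here as normalized counts per kb of exonic bases. That length takes in the exons of all annotated transcripts of a gene. It was 7099 bases for Hsf1, 4301 for Hspa8, 1474 for Hspe1 and 2999 for Hsp90ab1. Their protein-coding transcripts held 2444, 2550, 725 and 2686 different 50-base words. A shorter length would raise Hsf1, Hspa8 and Hspe1 more than Hsp90ab1, and the order with other lengths was not computed. In HFD the order was Hsp90ab1 (5247), Hspa8 (4343), Dnajb1 (1756), Hsp90aa1 (1092), Hspe1 (884), Hspd1 (840), Hspa1a (402), Hsf1 (92.3), Hspa1b (75.2) and Hsph1 (39.9 normalized counts per kb). In ND it was Hsp90ab1 (3613), Hspa8 (1888), Hsp90aa1 (1319), Dnajb1 (971), Hspe1 (826), Hspd1 (460), Hspa1a (306), Hspa1b (148), Hsph1 (34.5) and Hsf1 (24.5). By these means Dnajb1 stood above Hsp90aa1 in HFD and below it in ND, although in ND 3 the levels were nearly equal, at 1151 for Dnajb1 and 1148 for Hsp90aa1. With this length the order of the 3 lowest genes also changed between libraries. Hsf1 exceeded Hspa1b in HFD 5 and not in HFD 2 or HFD 4, and it was below Hsph1 in ND 1 and not in ND 3 or ND 4. Among means within HFD, Hsp90ab1 and Hspa8 differed by less than the SD of Hspa8, 1121 normalized counts per kb, and likewise Hspe1 and Hspd1 differed by less than either SD, 108 and 189, Hsf1 and Hspa1b by less than the SD of Hsf1, 35.5, and Hspa1b and Hsph1 by less than the SD of Hsph1, 43.0. In ND the Hspe1 SD, 383, exceeded the gap to Dnajb1 and to Hspd1, and the Hsph1 SD, 34.5, exceeded the gap to Hsf1. Shared sequence bears on this order. The transcripts of 6 of the 10 genes share over 40% of their 50-base words with other annotated genes, with 68.8% for Hspa8, 50.1% for Hsp90aa1, 44.8% for Hspe1 and 42.1% for Hspd1, against 4.13% for Hsp90ab1 and 0.00% for Hsph1 and Hsf1. Of 12 genes outside the 10 that share at least 1% of the Hspa8 words, 8 were measured here, and the highest value among these 8 was 555 normalized counts, in Gm26825.

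Scaling to equal column totals shifted the median log2 fold change of all genes by −0.11. Rescaling shifts every gene by nearly the same amount, so log2 fold changes relative to that median could hardly differ between the scalings. They were 1.14 for Hspa8, 0.80 for Hspd1 and −1.04 for Hspa1b. The signs of all 10 log2 fold changes were the same under equal totals and under TMM scaling. The separation of the libraries depended on the scaling. Under equal totals 3 of the 10 genes kept apart, namely Hspa8, Hspd1 and Hspa1b, and the share over all genes was not computed. ND 3 came above HFD 2 for Dnajb1 and above HFD 4 for Hsf1, and ND 1 came within the HFD range for Hsp90aa1.

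**Figure D4:**
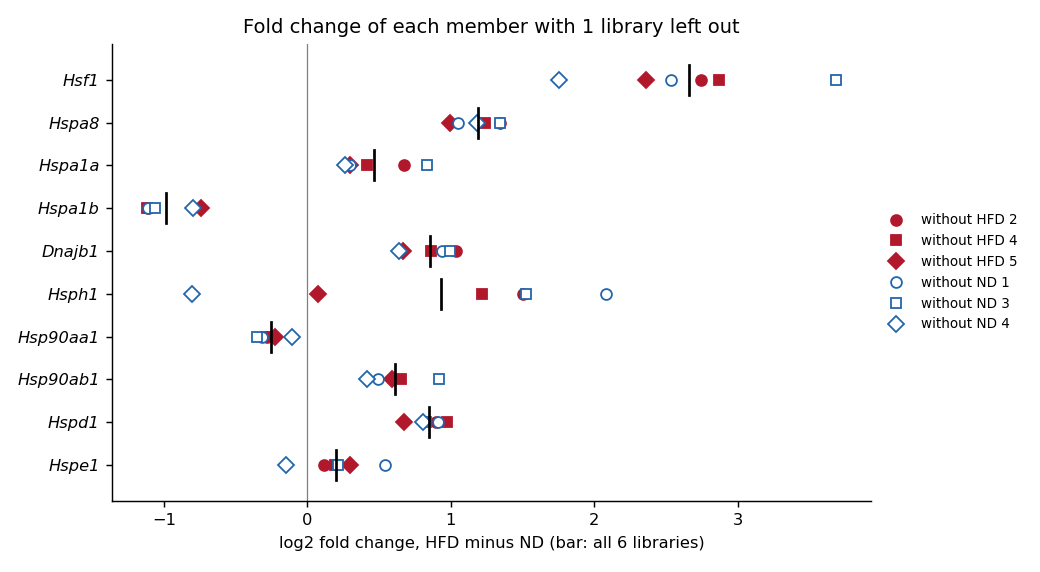
Log2 fold change of each gene, HFD minus ND, in fits that leave out 1 library each; the bar marks the fit with all 6 libraries. Hspa8 ranges from 0.99 to 1.34, Hspd1 from 0.67 to 0.97, Dnajb1 from 0.64 to 1.04 and Hspa1b from −1.12 to −0.74. Hsf1 ranges from 1.75 to 3.69, and Hsph1 and Hspe1 cross 0 without ND 4.

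The wider chaperone network was described by 8 further lists with 80 tested genes, of which 58 had a log2 fold change above 0, a share of 72.5% against 52.8% of all genes. Limma called 0 of the 80, and at an unadjusted p under 0.05 it had 8 higher, against 5.56% of all genes, and 1 lower, against 2.36%. Without overlap between the diets, 11 of the 80 lay higher in HFD, against 8.12% of all genes, and 2 of the 80 lay lower, against 5.93%. The median log2 fold change was 0.34, against 0.05 over all genes. Among the 2 genes named from each list, DESeq2 called Cryab alone, and its calls among the rest of the 80 are not given. By edgeR and limma-voom 0 of all genes were called.

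Hsp90 co-chaperones had a median of 0.45, with 13 of 15 above 0 and 4 of 15 without overlap and higher in HFD, against 8.12% of all genes. Cdc37, which brings kinases to Hsp90, had 1819, 1399 and 2331 normalized counts in HFD 2, HFD 4 and HFD 5, against 451, 1171 and 385 in ND 1, ND 3 and ND 4. Ppp5c, a phosphatase that docks on Hsp90, had 320, 498 and 287 in HFD 2, HFD 4 and HFD 5, against 133, 120 and 90.3 in ND 1, ND 3 and ND 4. Both separated the diets, with log2 fold changes of 1.62 ± 0.49 and 1.65 ± 0.49 (SE; limma adjusted p = 0.524 and 0.522). Among partners of Hsp70, 12 of 16 other J-domain proteins and 5 of 7 BAG and exchange factors were above 0. Dnajc7, a J-domain protein that binds both Hsp70 and Hsp90, had a log2 fold change of 0.86 ± 0.34, Dnaja1 0.45 ± 0.24 and Bag5, an exchange factor, 0.77 ± 0.26 (SE), each without overlap between the diets. Dnaja1 was at 0.26 without ND 3. Hspbp1, a further exchange factor, had 1.03 ± 0.72 (SE) with overlap, 0.40 without ND 4 and 0.52 by edgeR.

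Of 7 other Hsp70 and Hsp110 genes, 5 were above 0. Hspa14, an Hsp70 relative bound to ribosomes, had 1759, 2810 and 2610 normalized counts in HFD 2, HFD 4 and HFD 5, against 459, 1178 and 1150 in ND 1, ND 3 and ND 4. It separated the diets at a log2 fold change of 1.46 ± 0.45 (SE; limma adjusted p = 0.524). Hspa4l of the Hsp110 family had −0.76 ± 0.55 with overlap, and −0.26 without HFD 4. The cytosolic chaperonin TRiC and prefoldin, which fold actin and tubulin, had 11 of 14 genes above 0 and a median of 0.27. Tcp1 and Cct8, subunits of TRiC, had log2 fold changes of 0.67 ± 0.28 without and 0.53 ± 0.27 with overlap (SE). Other mitochondrial chaperones and proteases had a median of 0.55, with 10 of 14 above 0. Htra2, a protease of the intermembrane space, had 1.51 ± 0.49 without overlap, but other genes overlap 43.7% of its exonic bases. Clpx, the unfoldase of the matrix protease ClpXP, had 1.49 ± 0.63 with overlap, and 0.94 without ND 4.

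Of the small heat-shock proteins, 3 of 5 tested genes had a log2 fold change below 0, with a median of −0.17. Cryab, αB-crystallin, had 3056, 2737 and 2898 normalized counts in HFD 2, HFD 4 and HFD 5, against 5911, 5313 and 6366 in ND 1, ND 3 and ND 4. The libraries of each diet lay close together and far from the other diet. The log2 fold change was −1.01 ± 0.20 (SE; limma adjusted p = 0.346), DESeq2 called it at an adjusted p = 0.0011, and edgeR and limma-voom did not, at adjusted p = 0.490 and 0.514. Hspb2, which starts next to Cryab on the opposite strand of chromosome 9 and shares 30.2% of its exonic bases with it, had 83.5, 40.3 and 38.2 normalized counts in HFD 2, HFD 4 and HFD 5, against 126, 162 and 89.1 in ND 1, ND 3 and ND 4. Hspb2 too was lower in each HFD library, by a log2 fold change of −1.26 ± 0.65 (SE; limma adjusted p = 0.659). Where the genes overlap, its reads can be told from those of Cryab only if the counting used strand, which is not given. ND 4 was the highest library for Cryab and for the summed lymphatic endothelial markers. The 5 markers summed to 4840 to 15733 normalized counts in HFD and 14799 to 32953 in ND, and their part in the result was not tested. Among the other heat-shock factors and regulators, Hsf2 had −0.50 ± 0.84 and Hsbp1, a small HSF1-binding protein, −0.13 ± 0.25 (SE), both with overlap. Hsf2 was at 0.07 without HFD 4, and Hsbp1 at 0.05 without ND 1.

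Heat-shock genes and immediate early genes are both known to respond to tissue dissociation, so 13 immediate early genes were measured beside them. Their summed level was 165254 to 297125 normalized counts in HFD and 170271 to 208745 in ND, with HFD 5 highest and HFD 2 lowest, and 8 of 13 had a log2 fold change above 0, with a median of 0.10. Limma called 0 of the 13. Egr1 had −0.40 ± 0.16 (SE; limma adjusted p = 0.609), with each HFD library below each ND library, and Fosb −0.61 ± 0.29 (SE; limma adjusted p = 0.644) with overlap. HFD 5 was the highest library for the summed immediate early genes as well as for Hspa8, Dnajb1, Hspd1 and Hsf1. Without it the log2 fold changes of those 4 genes were 0.99, 0.66, 0.67 and 2.36. Among the 13, HFD 5 was highest for Fos, Jun, Junb, Ier2, Zfp36, Dusp1 and Btg2. It was not for Fosb, Jund, Egr1, Atf3, Ier3 and Nr4a1. The part of dissociation in the levels of the heat-shock genes was not tested. Reads of mitochondrially encoded genes took 1.81% to 2.82% of a library in HFD and 2.65% to 3.54% in ND.

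**Figure D5:**
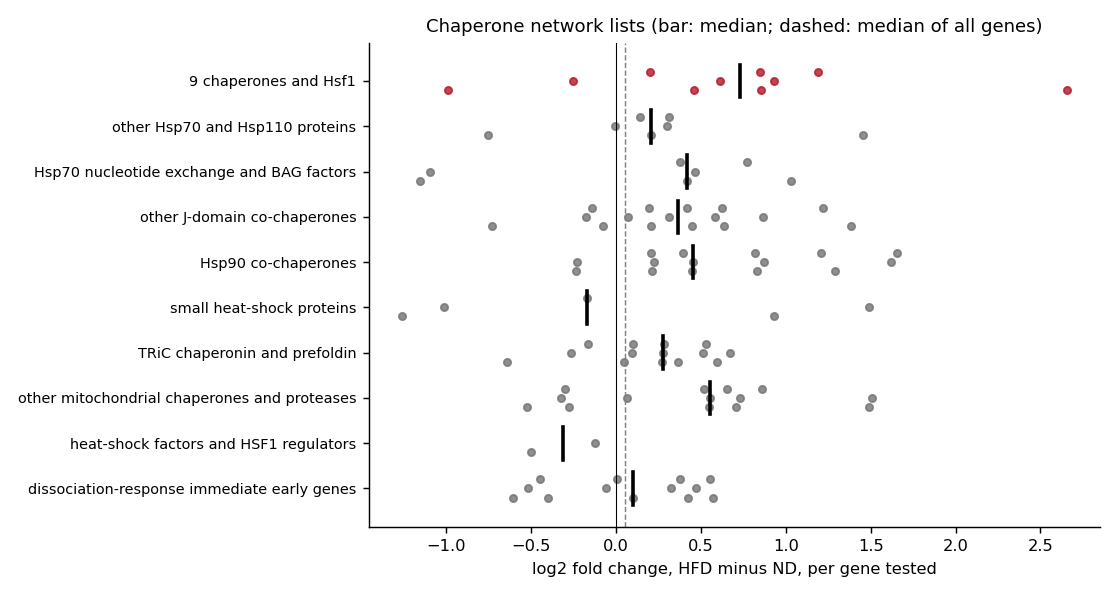
Log2 fold change, HFD minus ND, of each tested gene in the chaperone lists and in the immediate early list, with a bar at the median of each list and a dashed line at the median of all genes. The median is 0.73 for the 9 chaperones and Hsf1 and −0.17 for small heat-shock proteins, whose genes lie on both sides of 0.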

How the data were processed

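Poly(A)-primed RNA of 6 libraries was amplified by PCR without molecular identifiers, per the labels' protocols. The build GRCm38 and these tools, with no role stated, are named per the submitters' processing notes: HTSeq 0.6.1, TopHat2 2.0.10, cutadapt, Bowtie 1.0.0, DESeq2, FastQC 0.11.7 and SAMtools 0.1.19. The values deposited by the authors are a normalized signal, gene counts divided by a size factor. Dividing by the smallest step of each column gave whole reads for all values (100% within 1e-06). Columns were matched by diet letter and mouse number. No pair of libraries agreed within sampling noise (chi-square per degree of freedom 84.3 to 205), so each counted once. P-values measure the spread between libraries, 1 per mouse and 3 per diet, which holds differences between animals and in preparation together.

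Genes averaging 10 or more normalized counts were tested as log2(value + 1) without covariates by limma (3.58.1, trend on mean expression; R 4.3.3). Alternatives used edgeR 4.0.16, DESeq2 1.42.0 and limma-voom on the recovered reads, other pseudocounts, filters and scalings, sample weights, and each library left out. Fits were tested on simulated data. Members and gene lists were chosen with earlier results of these data known. All 10 members were named, and of each further list the 2 genes of smallest unadjusted p where none passed. Exonic lengths and 50-base words come from GENCODE M21, promoters from RefSeq (GRCm38.p6), with a window for 6 of the 10 genes.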

Additional observations from a re-analysis of the deposited data

How the results depend on the processing

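No paired analysis was possible because the diets share 1 mouse number only, which names different animals. Limma's count of called genes was 0 under every other pseudocount, filter, scaling and weighting tried and with any 1 library left out, and edgeR and limma-voom called 0. DESeq2 called 272 genes and 1 of the 10 described here, Hspa8, at a log2 fold change of 1.12; the cause of this difference between tools was not tested. The median log2 fold change of the 10 genes was 0.34 to 0.88 with 1 library left out, lowest without ND 4, and 0.40 by edgeR and 0.39 by DESeq2. Hsph1 reversed, with a range of −0.81 to 2.08, and so did Hspe1, with −0.15 to 0.54. Under equal column totals 2 of the 10 genes had every HFD library above every ND library, and 1 had every HFD library below. The share over all genes was not computed for that setting. With 1 library left out the counts were 4 to 6 and 2. They can only stay or rise when a library is dropped, so they do not test the separation. These counts were chosen as alternatives after seeing the data. The Hsp70, Hsp90 and Hsp10 to Hsp60 ratios kept their sign under both pseudocounts and each library left out, with differences of −1.18 to −0.99, −1.27 to −0.52 and −0.96 to −0.37 with 1 library left out.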
